A study of Mus musculus with 8 samples.

Results

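The small heat shock proteins of muscle and their co-chaperone Bag3 form a set of 8 genes: Hspb1, Hspb2, Hspb3, Hspb6, Hspb7, Hspb8, Cryab and Bag3. They were taken by gene symbol from the 54532 genes in each deposited count table. All 8 passed the filter on low counts, which left 10691 genes for testing. RNA came from the quadriceps of mice aged 3 months on a chow diet and was read by QuantSeq 3′ mRNA sequencing, in which a read marks the 3′ end of a polyadenylated transcript. Controls (4 libraries) were homozygous for a floxed Gpcpd1 allele and negative for the Cre transgene. Knockouts (4 libraries, called MckCre-Gpcpd1 by the submitters) had the same floxed alleles together with Mck Cre, a recombinase driven by the muscle creatine kinase promoter. Gpcpd1 encodes an enzyme that breaks down glycerophosphocholine. Because every control lacked Cre, the presence of Cre and the deletion cannot be told apart, and in whole muscle fewer cells of a type and less RNA per cell cannot be told apart either.

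Small heat shock proteins share an alpha-crystallin domain and assemble into oligomers. They hold unfolding proteins without using ATP until Hsp70 chaperones can refold them or pass them on for degradation. In striated muscle they are abundant and gather at the Z-disc and on desmin and filamin under mechanical load. Bag3 ties Hspb8 to Hsp70 and hands damaged filamin to autophagy. Inherited mutations in several of these genes cause myopathies or motor neuropathies.

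Library totals ran from 4404116 to 5405999 reads, and 3 reads corresponded to between 0.557 and 0.646 CPM (reads per common library size after TMM scaling). Gpcpd1 fell from 149.7 ± 10.7 CPM (SD, n = 4) in controls to 35.1 ± 3.45 CPM (SD, n = 4) in knockouts, with no overlap. The labels do not say that each library came from a different mouse, so p-values measure only the spread between libraries, which may be technical. Of the 10691 genes tested, 1675 (15.7%) passed an edgeR adjusted p of 0.05, with 948 (8.87%) higher and 727 (6.80%) lower in knockouts. Reads of Y-linked genes were present in all 8 libraries, and Xist had 2 reads over all of them.

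Of the 8 genes, 6 rose in the knockouts and Hspb8 fell, against 15.7% of all tested genes called in either direction. Hspb3 did not pass the test. Hspb6, Hspb7, Cryab and Hspb1 rose about 2-fold or more, and the knockout libraries lay above all controls for these 4 genes, against 10.3% of all tested genes that were higher without overlap. The rises of Hspb2 and Bag3 were small, and both calls depended on the method and on single libraries. The median log2 fold change over the 8 genes was 0.63, and over all tested genes it was 0.01.

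**Figure D1:**
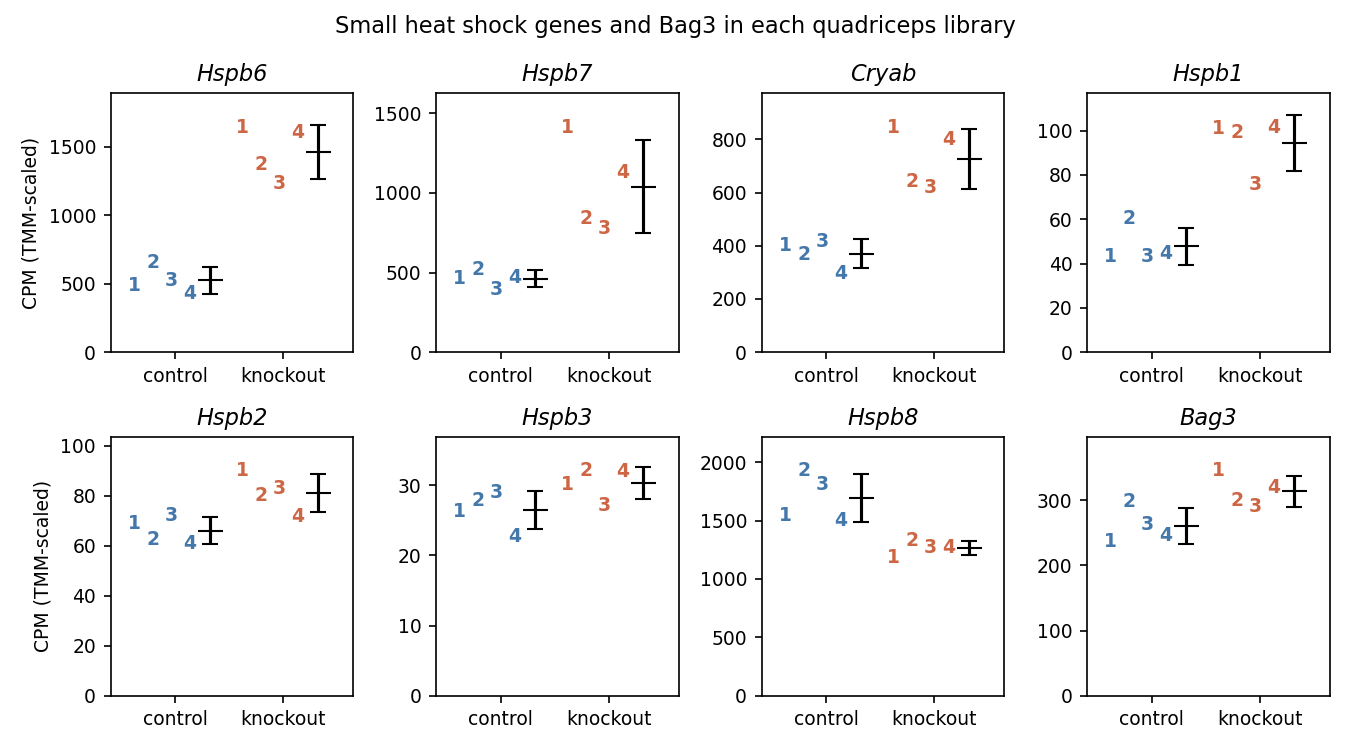
Level of each of the 8 genes in TMM-scaled CPM, on a linear axis from 0 that differs between panels; each number is the library of that number (4 controls in blue, 4 knockouts in orange), and black bars give the mean and SD of the group. Hspb6, Hspb7, Cryab and Hspb1 lie higher in all 4 knockouts, Hspb8 lies lower in all 4, and Hspb2, Hspb3 and Bag3 overlap.

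Hspb6, also called Hsp20, is a small heat shock protein that binds actin-associated proteins and is phosphorylated by cyclic nucleotide dependent kinases. Hspb6 (ENSMUSG00000036854, GRCm38 chromosome 7, 30552178 to 30555443, plus strand) stood at 487, 657, 527 and 429 CPM in controls 1 to 4 and at 1644, 1368, 1235 and 1603 CPM in knockouts 1 to 4. The lowest knockout was well above the highest control. Its mean went from 525 ± 96.9 CPM (SD, n = 4) to 1462 ± 194 CPM (SD, n = 4), a ratio of means of 2.79. The log2 fold change of Hspb6 was 1.48 (SE 0.12, 95% interval 1.22 to 1.73, edgeR adjusted p = 1.1e-07), the largest of the 8 genes. Hspb6 shares 122 exonic bases with Proser3 on the other strand, but Proser3 had 80 reads over all 8 libraries and Hspb6 had 39409.

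Hspb7, the cardiovascular heat shock protein, binds filamin C at the Z-disc and keeps large proteins from aggregating. Hspb7 (ENSMUSG00000006221, GRCm38 chromosome 4, 141420779 to 141425311, plus strand) had 466, 518, 391 and 468 CPM in controls 1 to 4 and 1413, 839, 778 and 1126 CPM in knockouts 1 to 4. Every knockout exceeded every control, and the knockouts spread more widely among themselves, with libraries 1 and 4 above 2 and 3. The mean of Hspb7 rose from 461 ± 52.4 CPM (SD, n = 4) to 1039 ± 292 CPM (SD, n = 4). Its log2 fold change was 1.17 (SE 0.19, 95% interval 0.75 to 1.598, edgeR adjusted p = 0.0026).

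Cryab encodes alpha-B-crystallin, a chaperone of desmin filaments and of titin. Cryab (ENSMUSG00000032060, GRCm38 chromosome 9, 50751325 to 50756636, plus strand) had 402, 366, 418 and 295 CPM in controls 1 to 4, and 846, 641, 621 and 800.0 CPM in knockouts 1 to 4. The groups did not overlap, and knockouts 1 and 4 were again the highest. Its mean rose from 370.2 ± 54.7 CPM (SD, n = 4) to 727 ± 113 CPM (SD, n = 4). The log2 fold change of Cryab was 0.97 (SE 0.12, 95% interval 0.73 to 1.22, edgeR adjusted p = 8.7e-06).

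Hspb1, known as Hsp25 in the mouse, is a stress-induced chaperone of actin filaments and a substrate of the p38-MK2 kinase branch. Hspb1 (ENSMUSG00000004951, GRCm38 chromosome 5, 135887919 to 135889563, plus strand) stood at 43.3, 60.4, 43.3 and 44.6 CPM in controls 1 to 4 and at 101, 99.1, 75.6 and 102 CPM in knockouts 1 to 4. Control 2 was the highest control and knockout 3 the lowest knockout, and the groups still did not overlap. The mean of Hspb1 rose from 47.9 ± 8.37 CPM (SD, n = 4) to 94.4 ± 12.5 CPM (SD, n = 4), with a log2 fold change of 0.98 (SE 0.12, 95% interval 0.73 to 1.22, edgeR adjusted p = 3.2e-06).

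Hspb8, or Hsp22, is the client-binding partner of Bag3 and had the highest level of the set in controls. Hspb8 (ENSMUSG00000041548, GRCm38 chromosome 5, 116408491 to 116422864, minus strand) had 1543, 1927, 1806 and 1499 CPM in controls 1 to 4, and 1184, 1328, 1267 and 1272 CPM in knockouts 1 to 4. It was the only one of the 8 genes that was lower in every knockout than in any control, as were 8.92% of all tested genes. The knockout mean of Hspb8 (1263 ± 59.4 CPM, SD, n = 4) was 74.6% of the control mean (1694 ± 206 CPM, SD, n = 4). Its log2 fold change was -0.42 (SE 0.09, 95% interval -0.61 to -0.24, edgeR adjusted p = 0.0017).

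Bag3 had 237, 299, 263 and 245 CPM in controls 1 to 4 and 345, 299, 290.4 and 320 CPM in knockouts 1 to 4. Knockouts 1, 2 and 4 were above all controls, with knockout 2 above control 2 by under 1 CPM, and knockout 3 was within the control range. The mean of Bag3 (ENSMUSG00000030847, GRCm38 chromosome 7, 128523616 to 128546981, plus strand) went from 261 ± 27.4 CPM (SD, n = 4) to 314 ± 24.4 CPM (SD, n = 4). Its log2 fold change was 0.27 (SE 0.09, 95% interval 0.08 to 0.45, edgeR adjusted p = 0.044). This call was lost in 12 of the 17 alternative analyses, among them the fits without control 1, 3 or 4 and without knockout 1, 2 or 4, in which the edgeR adjusted p reached 0.137.

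Hspb2, the myotonic dystrophy kinase binding protein, and Hspb3 form a complex of their own in muscle. Hspb2 (ENSMUSG00000038086, GRCm38 chromosome 9, 50751078 to 50752354, minus strand) had 68.9, 62.6, 72.1 and 61.0 CPM in controls 1 to 4 and 90.1, 80.2, 82.9 and 71.7 CPM in knockouts 1 to 4. Knockout 4 was inside the control range and the other 3 knockouts were above it. Its log2 fold change was 0.30 (SE 0.09, 95% interval 0.10 to 0.49, edgeR adjusted p = 0.033). The call of Hspb2 was lost in 8 of the 17 alternatives, including those without control 2 or 4 and without knockout 1, 2 or 3, with an edgeR adjusted p of up to 0.102.

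Hspb3 (ENSMUSG00000051456, GRCm38 chromosome 13, 113662896 to 113663676, minus strand) was the lowest of the set, at 26.3, 27.8, 29.0 and 22.7 CPM in controls 1 to 4 and 30.2, 32.1, 27.1 and 32.0 CPM in knockouts 1 to 4. Knockout 3 was inside the control range. The log2 fold change of Hspb3 was 0.20 (SE 0.12, 95% interval -0.04 to 0.44, edgeR adjusted p = 0.28), an interval that leaves room for a rise as large as those of Hspb2 and Bag3.

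The sequences before the transcription start are shown for Hspb6, Hspb1 and Hspb3, which hold letters of a heat shock element, and for Hspb7 and Hspb8, which do not, so that genes that rose, fell or did not pass the test can be compared. Heat shock factors bind repeats of the letters NGAAN in alternating directions, and the search used GAANNTTC or TTCNNGAA, each of which is its own reverse complement, so both strands were read. Windows are the 250 bases before the start in RefSeq (GRCm38.p6), printed 5′ to 3′ on the strand of the gene with matches in capitals. For Hspb6, the last 33 bases of the window are annotated as untranslated in GENCODE and were left out. Both RefSeq windows of Hspb6, the one shown and one further upstream, lie inside the gene span given above, which starts at 30552178. The stretches are chr7:30553051-30553267 (plus strand) for Hspb6, chr5:135887669-135887918 (plus) for Hspb1, chr13:113663677-113663926 (minus) for Hspb3, chr4:141420529-141420778 (plus) for Hspb7 and chr5:116422865-116423114 (minus) for Hspb8.
Hspb6: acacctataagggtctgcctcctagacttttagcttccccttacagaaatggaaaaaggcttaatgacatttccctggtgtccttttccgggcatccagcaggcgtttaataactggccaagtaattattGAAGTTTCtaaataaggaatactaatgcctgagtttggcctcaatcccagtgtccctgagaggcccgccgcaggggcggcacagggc
Hspb1: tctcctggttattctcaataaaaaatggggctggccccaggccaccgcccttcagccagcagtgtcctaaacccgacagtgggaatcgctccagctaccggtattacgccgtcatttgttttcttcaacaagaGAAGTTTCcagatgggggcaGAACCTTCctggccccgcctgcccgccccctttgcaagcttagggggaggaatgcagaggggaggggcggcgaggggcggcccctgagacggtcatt
Hspb3: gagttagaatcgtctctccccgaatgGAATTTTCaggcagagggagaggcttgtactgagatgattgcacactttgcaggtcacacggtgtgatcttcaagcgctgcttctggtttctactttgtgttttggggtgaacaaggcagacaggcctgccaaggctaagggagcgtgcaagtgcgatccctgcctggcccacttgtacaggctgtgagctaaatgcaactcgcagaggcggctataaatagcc
Hspb7: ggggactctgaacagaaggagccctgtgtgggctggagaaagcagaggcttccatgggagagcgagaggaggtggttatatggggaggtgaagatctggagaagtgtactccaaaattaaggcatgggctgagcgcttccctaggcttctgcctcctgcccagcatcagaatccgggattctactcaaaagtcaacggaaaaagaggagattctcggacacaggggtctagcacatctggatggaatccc
Hspb8: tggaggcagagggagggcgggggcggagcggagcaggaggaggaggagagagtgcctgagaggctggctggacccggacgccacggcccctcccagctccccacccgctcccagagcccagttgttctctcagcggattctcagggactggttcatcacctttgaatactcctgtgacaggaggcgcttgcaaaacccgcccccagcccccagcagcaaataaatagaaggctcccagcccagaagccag

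Hspb1 held matches beginning 117 and 97 bases before its start, Hspb6 held 1 match beginning 120 bases before, and Hspb3 held 1 match beginning 224 bases before. The same letters, GAAGTTTC, stood in Hspb1 at position -117 and in Hspb6 at -120. The windows of Hspb7, Hspb8 and Bag3 and an upstream window of Hspb6 held none. A match was present in 12.8% of all 32851 windows of that length in the table, and 1.46% of windows held 2 or more, as that of Hspb1 did. Among the genes that rose, then, some windows had the letters and some had not, and Hspb3, which did not pass the test, had them. Cryab and Hspb2 were matched to no window.

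**Figure D2:**
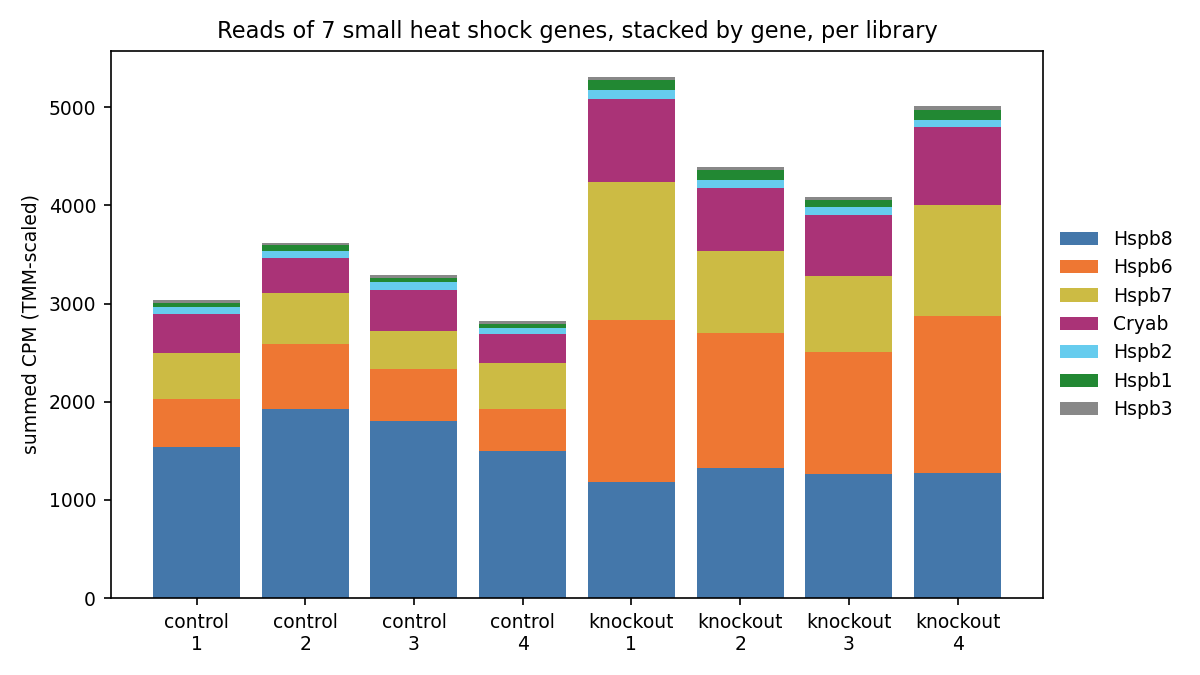
Summed level of the 7 small heat shock genes in each of the 8 libraries, in TMM-scaled CPM, with each gene as a segment of the bar. The sum lies between 2819 and 3619 CPM in controls and between 4086 and 5308 CPM in knockouts, and Hspb8 takes a smaller part of the knockout bars.

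The composition of the small heat shock reads differed between genotypes. Summed over the 7 genes, the level was 3190 ± 344 CPM (SD, n = 4) in controls and 4697 ± 559 CPM (SD, n = 4) in knockouts, 1.47 times as high. Hspb8 made up 53.0% ± 1.70 (SD, n = 4) of that sum in controls and 27.2% ± 4.12 (SD, n = 4) in knockouts. Hspb6 went from 16.4% ± 1.26 (SD, n = 4) to 31.1% ± 0.736 (SD, n = 4). Hspb6 was below Hspb8 in all 4 controls and above it in 3 of 4 knockouts, the exception being knockout 3. Hspb7 made up 14.5% of the sum in controls and 21.8% in knockouts, and Cryab 11.6% and 15.4%. These are descriptions without a test, and a share of a sum moves when any other gene in it moves.

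In the order of mean CPM, controls ran Hspb8, Hspb6, Hspb7, Cryab, Bag3, Hspb2, Hspb1 and Hspb3. The neighbours Hspb6 and Hspb7, Hspb7 and Cryab, and Cryab and Bag3 overlapped in range, and the other neighbours did not. Knockouts ran Hspb6, Hspb8, Hspb7, Cryab, Bag3, Hspb1, Hspb2 and Hspb3. There the ranges of Hspb6 and Hspb8, Hspb8 and Hspb7, Hspb7 and Cryab, and Hspb1 and Hspb2 overlapped. CPM levels of different genes are compared here without division by length, because each 3′ read stands for a transcript whatever its length.

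Hspb2 and Cryab lie head to head on chromosome 9 and overlap by 1030 bases on opposite strands. Their exons share 252 bases, from 50751325 to 50751576, through the first exon of 1 of 6 annotated Cryab transcripts. The strand setting of the counting is not given in the sources used here, so reads in those bases cannot be told apart. Cryab had 5.83, 5.84, 5.80 and 4.84 times the reads of Hspb2 in controls 1 to 4, and 9.39, 7.99, 7.49 and 11.2 times in knockouts 1 to 4. The ratio was higher in every knockout (log2 difference 0.68, exact two-sided permutation p = 0.0286, adjusted p = 0.0286 over 4 ratios). The neighbouring genes differed from each other in the size of their change, and 0.0286 is the smallest p that 4 against 4 libraries allow. The group ranges of Cryab and of Hspb2 permit no overlap of this ratio. Its p-value was therefore fixed by those levels and adds nothing to them.

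Bag3 and Hspb8, partners in a single complex, differed in their change. The log2 fold change was -0.42 for Hspb8 and 0.27 for Bag3, whose groups overlapped and whose call was lost in 12 of 17 alternatives. Bag3 had 0.153, 0.155, 0.146 and 0.164 reads for each read of Hspb8 in controls 1 to 4 and 0.292, 0.225, 0.229 and 0.251 in knockouts 1 to 4. The knockout ratios were all higher, by a factor of 1.61 (log2 difference 0.68, exact permutation p = 0.0286, adjusted p = 0.0286). Because it is taken within a library, this ratio does not depend on scaling. The group ranges of Bag3 and of Hspb8 permit no overlap of the ratio, so its p-value was fixed by those levels and adds nothing to them. The ratio of Hspb6 to Cryab rose by a log2 difference of 0.51 (a factor of 1.43, exact permutation p = 0.0286, adjusted p = 0.0286). That of Hspb1 to Hspb8 rose by 1.40 (a factor of 2.64), with the same p-values from that test. Every knockout was above every control for Hspb1 and below every control for Hspb8. The p-value of Hspb1 to Hspb8 was therefore also fixed by those levels and adds nothing to them. Hspb6 was thus raised more than Cryab, with 1.21 to 1.80 reads for each Cryab read in controls and 1.94 to 2.14 in knockouts.

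The other members of the small heat shock and BAG families that could be tested were too few for a comparison of shares with tested genes in general. Of 9 listed, 6 were tested, and edgeR called 1 higher and 1 lower, against 8.87% and 6.80% of all tested genes. At an unadjusted edgeR p under 0.05 the counts were 2 higher and 3 lower, without a share over all tested genes to set beside them. The log2 fold change was above 0 for 2 of the 6, with a median of -0.20. Bag1, a co-chaperone that releases clients from Hsp70, fell from 72.7 ± 5.96 to 58.1 ± 1.50 CPM (n = 4 per genotype, SD), or -0.32 in log2 (SE 0.09, edgeR adjusted p = 0.015). Hspb11, an intraflagellar transport protein that carries the family name, had 3.39 ± 1.10 CPM in controls and 6.52 ± 1.22 CPM in knockouts (n = 4 per genotype, SD), with an edgeR adjusted p of 0.012. Its call was lost without control 4 and without knockout 4. Cryaa, the lens partner of Cryab, had 0 reads in all 8 libraries.

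**Figure D3:**
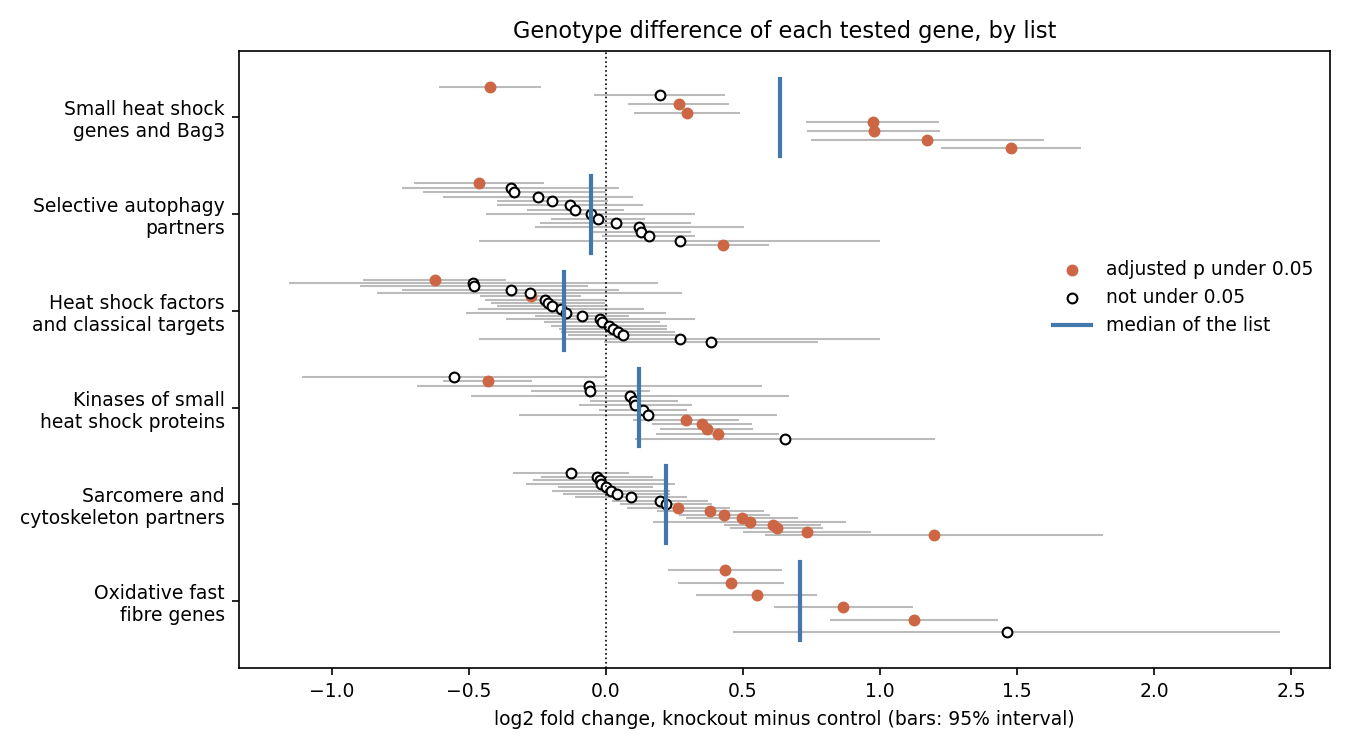
Log2 fold change (knockout minus control) of every tested gene in the small heat shock set and in 5 lists of partners, regulators and oxidative fibre genes, with a point and its 95% interval for each gene, filled where the edgeR adjusted p was under 0.05, and a blue bar for the median of each list. The set has a median of 0.63, the heat shock factors and their classical targets -0.15, and the oxidative fast fibre genes 0.71.

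The list of heat shock factors and their classical targets, from which the members of the set were left out, held no gene called higher. By edgeR, 0 of 20 tested were called higher and 2 lower, against 8.87% and 6.80% of all tested genes, with a median log2 fold change of -0.15. The count of higher genes was also 0 at an unadjusted edgeR p under 0.05, by DESeq2 and by limma voom. Stip1, which links Hsp70 to Hsp90, fell by 0.27 on the log2 scale (SE 0.09, edgeR adjusted p = 0.038), a call lost without control 1 or 2 and without knockout 2, 3 or 4. Hsf1, the main heat shock factor, had a log2 fold change of -0.15 (SE 0.18), Hsp90ab1 of -0.09 (SE 0.08) and Dnajb1 of -0.48 (SE 0.20), and none of these 3 passed the test. Hspa1a, whose reads may be divided with its near-identical copy Hspa1b, stood at 3.88 ± 1.02 CPM in controls and 4.72 ± 2.70 CPM in knockouts (n = 4 per genotype, SD), and its log2 fold change of 0.27 became -0.16 without knockout 1. The part of a heat shock response in the rise of Hspb1, Cryab and Hspb6 was not tested.

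The partners of Bag3 in chaperone-assisted selective autophagy were called about as often as tested genes in general. Of 15 tested, 1 was higher and 1 lower, against 8.87% and 6.80% of all tested genes, with a median log2 fold change of -0.06. Synpo2, the Z-disc protein that binds Bag3 through its WW domain, rose from 449 ± 23.4 to 604 ± 40.9 CPM (n = 4 per genotype, SD), or 0.43 in log2 (SE 0.08, edgeR adjusted p = 0.00058). Dnajb2, a J-domain protein that delivers clients to Hsp70, fell by 0.46 on the log2 scale (SE 0.11, edgeR adjusted p = 0.0066). The constitutive Hsp70 gene Hspa8 had a log2 fold change of -0.20 (SE 0.10), the ubiquitin ligase Stub1 of -0.11 (SE 0.09) and the autophagy receptor Sqstm1 of 0.16 (SE 0.08), and none of the 3 passed.

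Clients and binding partners in the sarcomere and cytoskeleton included more risers. Of 19 tested, 9 were higher, against 8.87% of all tested genes, and 0 were lower by edgeR, also at an unadjusted p under 0.05, by DESeq2 and by limma voom. The median log2 fold change was 0.22. Flnc, the filamin that Hspb7 and Bag3 bind, rose from 244 ± 16.7 to 371 ± 29.7 CPM (n = 4 per genotype, SD), or 0.61 in log2 (SE 0.09, edgeR adjusted p = 1.6e-05). Actn2, the alpha-actinin that cross-links actin at the Z-disc, rose by 0.73 (SE 0.11, edgeR adjusted p = 9.6e-05), and its binding partner Pdlim3 by 0.62 (SE 0.08, edgeR adjusted p = 7.4e-06), both on the log2 scale. Dmpk, the kinase that Hspb2 binds and which was picked out after its values were seen, rose by 0.50 (SE 0.10, edgeR adjusted p = 0.00095). Des, which encodes the desmin that Cryab chaperones, had 4693 ± 689 CPM in controls and 4295 ± 470 CPM in knockouts (n = 4 per genotype, SD) and did not pass.

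A further list held genes of the kinase branches that act on small heat shock proteins, with upstream kinases and regulatory subunits included. Of 14 tested, 4 were higher and 1 lower, against 8.87% and 6.80% of all tested genes, with a median log2 fold change of 0.12. Mapk12, a p38 kinase of muscle, rose by 0.37 (SE 0.08, edgeR adjusted p = 0.0029). The regulatory subunits of protein kinase A moved in opposite directions: Prkar2a fell by 0.43 (SE 0.08, edgeR adjusted p = 0.00037) and Prkar1a rose by 0.35 (SE 0.09, edgeR adjusted p = 0.0073). Prkaca, the catalytic subunit that acts on Hspb6, had a log2 fold change of 0.13 (SE 0.08), and Mapkapk2, the kinase of Hspb1, of 0.10 (SE 0.08). Neither passed the test. Mapkapk3, a close relative of Mapkapk2 that was picked out after its values were seen, had 31.4 ± 3.20 CPM in controls and 41.6 ± 3.68 CPM in knockouts (n = 4 per genotype, SD), with all knockouts above all controls. It rose by 0.41 in log2 (SE 0.11, edgeR adjusted p = 0.011), a call lost without control 3 and without knockout 3.

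Fibre-type genes moved in the same libraries. Of 6 oxidative fast fibre genes, 5 were higher, against 8.87% of all tested genes, and all 6 were higher without overlap, against 10.3%, with a median log2 fold change of 0.71. Mb, which encodes the oxygen store myoglobin, rose from 2958 ± 338 to 5393 ± 1044 CPM (n = 4 per genotype, SD), or 0.87 in log2 (SE 0.12, edgeR adjusted p = 6.1e-05). Ldhb and Fabp3, of lactate and fatty acid use, rose by 1.12 (SE 0.15) and 0.55 (SE 0.11). Myh2, the type IIA myosin, had 344 ± 145 CPM in controls and 949 ± 364 CPM in knockouts (n = 4 per genotype, SD), with an edgeR adjusted p of 0.064. Of 10 slow fibre genes listed, only 5 passed the filter on low counts, and the slow myosin heavy chains were not among them. Of these 5, 2 were called higher (8.87% of all tested genes), and 3 had a log2 fold change above 0. The slow light chain Myl3 went from 23.7 ± 11.1 to 219 ± 120.0 CPM (n = 4 per genotype, SD). Of 12 glycolytic fast fibre genes, 2 were higher and 2 lower (8.87% and 6.80% of all tested genes), with a median of 0.04. Of 12 regeneration and embryonic muscle genes, 3 were higher (8.87% of all tested genes), among them Actc1, the cardiac and embryonic actin, by 2.67 (SE 0.29, edgeR adjusted p = 0.0011). The part of fibre type in the rise of the small heat shock genes was not tested.

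**Figure D4:**
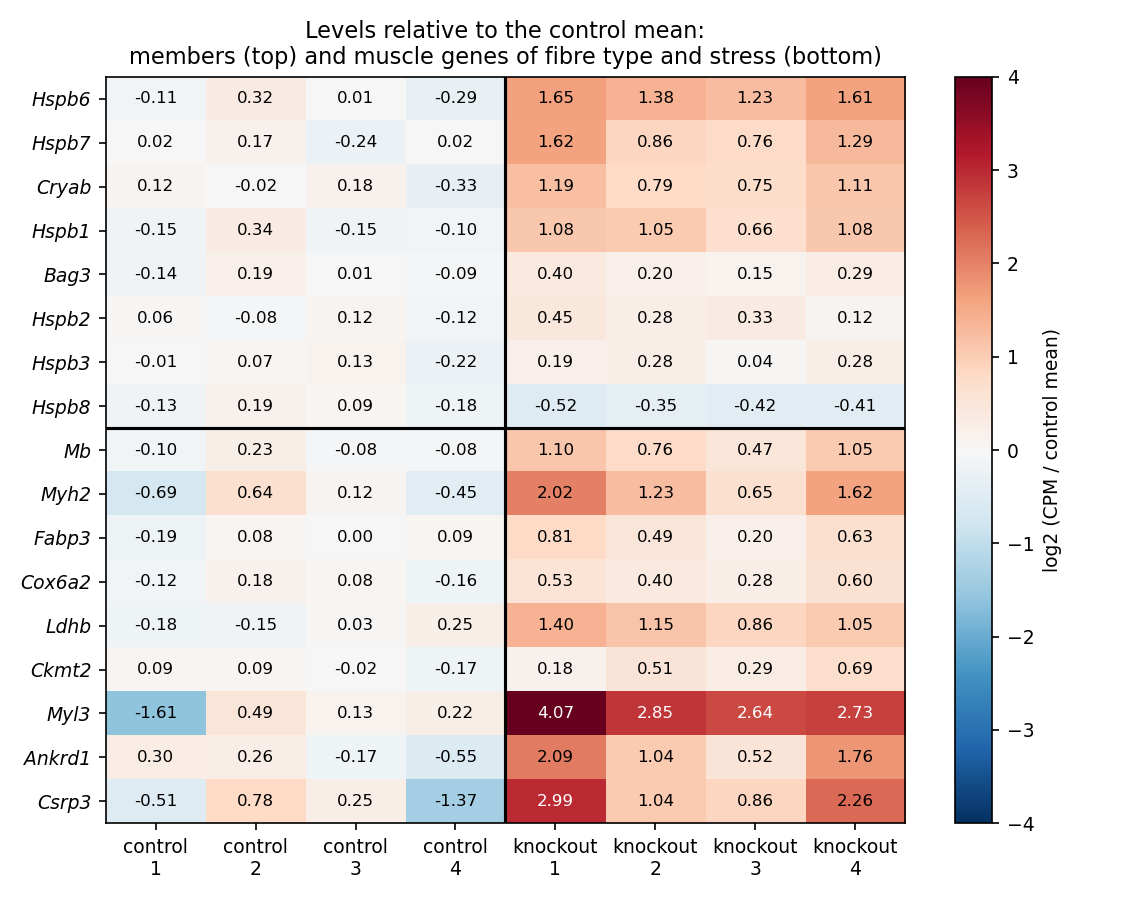
Level of the 8 genes (top) and of 9 fibre-type and stretch-related genes (bottom) in each of the 8 libraries, as log2 of CPM over the control mean, printed in each cell and shown in colour (red above, blue below). Knockouts 1 and 4 are the highest pair among the knockouts for Hspb6, Hspb7, Cryab, Hspb1 and Bag3, and for Myh2, Mb, Fabp3, Cox6a2, Ankrd1 and Csrp3.

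Knockout libraries kept a common order over several of these genes. The pair of knockouts 1 and 4 was not planned in advance but picked from the values, so the counts that follow are a description. Knockouts 1 and 4 were the highest pair among the 4 knockouts for 5 of the 8 genes (Hspb6, Hspb7, Cryab, Hspb1 and Bag3). The same held for 4 of 6 oxidative fast fibre genes, for 7 of 19 sarcomere and cytoskeleton partners, for 6 of 20 heat shock factors and targets, for 16.5% of all tested genes and for 21.5% of the genes called higher. For Hspb6, Hspb7, Cryab and Bag3 the order was knockout 1, 4, 2 and 3, and it was the same for Myh2, Mb and Fabp3. It also held for Ankrd1 and Csrp3, genes that respond to muscle stretch and were added after their values were seen. Ankrd1 had 41.8 ± 10.9 CPM in controls and 116 ± 53.5 CPM in knockouts (n = 4 per genotype, SD), and neither gene passed the edgeR test. Both passed with DESeq2, limma voom and edgeR without robust estimation, and Ankrd1 also without knockout 3. Hspb1 (knockout 4, 1, 2 and 3), Hspb8, Hspb2 and Hspb3 did not follow the order 1, 4, 2 and 3. The remaining oxidative fast fibre genes and Myl3 did not follow it either. The share of all tested genes with that exact order was not computed.

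Markers of other cells were examined because vessel wall cells also hold Hspb6, Hspb1 and Cryab. Over all tested genes, edgeR called 8.87% higher and 6.80% lower. Of 10 smooth muscle and pericyte markers tested, 1 was higher and 0 lower by edgeR, with a median log2 fold change of -0.01. At an unadjusted edgeR p under 0.05 the counts were 3 higher and 0 lower, and DESeq2 and limma voom each called 1 higher and 0 lower. Their summed level was 593 to 636 CPM in controls and 622 to 675 CPM in knockouts. The marker that rose was Lmod1, a leiomodin, from 15.3 ± 1.94 to 41.3 ± 3.77 CPM (n = 4 per genotype, SD). Of 9 endothelial, 5 adipocyte, 5 Schwann cell and 4 satellite cell markers, 0 were called by edgeR, DESeq2 or limma voom, and 1 endothelial marker was lower at an unadjusted edgeR p under 0.05. Their summed levels were 459.8 to 556 CPM in controls and 441 to 499.6 CPM in knockouts for endothelial markers, 33.6 to 76.7 and 37.97 to 81.5 CPM for adipocyte markers, 55.2 to 79.9 and 61.0 to 68.1 CPM for Schwann cell markers, and 32.1 to 37.1 and 28.7 to 43.9 CPM for satellite cell markers. Fibroblast markers had 1 of 7 lower (6.80% of all tested genes), with a median log2 fold change of -0.06. They summed to 515 to 629 CPM in controls and 454 to 553 CPM in knockouts. Macrophage markers had 3 of 7 lower (6.80% of all tested genes). Their median log2 fold change was -0.59, and 0 of the 7 were above 0. They summed to 71.1 to 118 CPM in controls and 52.7 to 82.5 CPM in knockouts. The part of these cells in the change of the small heat shock genes was not tested. No marker in these lists had 0 reads in all 8 libraries. Of 7 immediate early genes, which respond to handling of tissue, edgeR called 0 higher and 1 lower (8.87% and 6.80% of all tested genes). The count of higher genes was also 0 at an unadjusted edgeR p under 0.05, by DESeq2 and by limma voom. Their median log2 fold change was -0.27. The gene that fell was Ier3, by 0.38 on the log2 scale, a call lost without knockout 3. The defining genes of skeletal muscle were abundant in every library, with Mb alone at 2769 CPM or more.

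Genes outside the set were ranked by how closely their level followed that of a member, as the root mean square difference over the 8 libraries of log2 level minus the control mean, among 6272 genes of at least 10 CPM. Nearest to Hspb6 were Lmcd1 (0.158), Hfe (0.188), Atp1b4 (0.190), Thrsp (0.198) and Myoz2 (0.218). Lmcd1, a LIM domain protein of striated muscle, rose from 70.6 ± 8.62 to 181 ± 28.9 CPM (n = 4 per genotype, SD), and Myoz2, a calcineurin-binding protein of the Z-disc, from 11.4 ± 2.19 to 28.8 ± 8.17 CPM (n = 4 per genotype, SD). Nearest to Cryab were Hes1 (0.129), Vgll2 (0.151), Shisa4 (0.157), Myh10 (0.167) and Trim16 (0.180). Nearest to Hspb8 were Nrep (0.0494), Sort1 (0.0510), Kcnj11 (0.0538), Pprc1 (0.0573) and Tagap1 (0.0597). Kcnj11, the pore subunit of the muscle ATP-sensitive potassium channel, fell from 168 ± 15.5 to 123 ± 9.82 CPM (n = 4 per genotype, SD). These neighbours were picked for their likeness, so their own differences between genotypes are given as a description.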

How the data were processed

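Quadriceps RNA was compared between 4 control and 4 knockout libraries, taken from the genotype label. Replicate numbers follow accession order and pair nothing. The deposited values are raw counts of reads for each Ensembl gene, per the file headers. According to the submitters' processing notes, Bowtie2 2.3.4.1, featureCounts and Subread 1.6.2 were used, with GRCm38 and mm10 as builds. How strand, multiply mapped reads and the choice of annotation release were handled is not stated there, so overlapping and near-identical genes have uncertain counts. Of 54532 genes, 54495 were matched to GENCODE M21.

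R 4.3.3 and edgeR 4.0.16 served to fit the whole table. The filterByExpr filter (minimum count 10, minimum total 15) retained 10691 genes with 99.5% to 99.6% of the reads. After TMM scaling, genotype entered a robust quasi-likelihood F test with Benjamini-Hochberg adjustment over all tested genes. Standard errors were derived from the F statistic. Ratios between members were tested by exact two-sided permutation. The floor of 3 reads covers counting error only. The procedure was tested on simulated counts.

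The members and the 19 other gene lists were chosen with earlier results of these data known. The text draws its named genes from the 8 members, Gpcpd1, up to 3 called genes of lowest p per list (markers and sex-linked genes apart, 2 as values where none was called), and the 5 genes nearest to Hspb6, Cryab and Hspb8 after a pseudocount of 0.5 CPM, without predicted genes, RIKEN clones and pseudogenes. Hsf1, Hspa8, Hspa1a, Dnajb1, Hsp90ab1, Des, Stub1, Sqstm1, Mapkapk2, Prkaca, Myh2, Ankrd1, Csrp3, Lmod1, Dmpk and Mapkapk3 were added after their values were seen. Alternatives were DESeq2 1.42.0, limma 3.58.1 voom, edgeR without robust estimation, other scalings and filters, the library number as a covariate, and leaving out each library. Ratios were also taken with 1 read added to each count. Promoter windows are those of RefSeq, and 6 of the 8 members had one. The protein features planned beside them were not analysed here. A gene that the naming rule takes is not reported here.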

Additional observations from a re-analysis of the deposited data

Results flagged for a closer look

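In 140 groups of 4 libraries examined, 11 had a library whose gap to the nearest of the others took more of the range than Dixon's 95% critical value allows. Chance gives such a gap in about 1 group in 20, so these are values only. Control 2 had 60.4 CPM of Hspb1, against 43.3 to 44.6 CPM in the other controls. Knockout 3 had 75.6 CPM of Hspb1, against 99.1 to 102 CPM in the other knockouts. The log2 ratio of Cryab to Hspb2 was 2.27 in control 4 and 2.54 to 2.55 in the other controls.

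Among related genes, knockout 1 had 398 CPM of Myl3 (148 to 171 in the other knockouts), 10757 CPM of the fast light chain Myl1 (10256 to 10338) and 73.7 CPM of Thrsp (62.1 to 62.6). Control 2 had 3464 CPM of Mb (2769 to 2801 in the other controls), control 4 had 42.2 CPM of Ier3 (49.1 to 50.5) and control 3 had 2.35 CPM of Hspa1a (4.31 to 4.46). Knockout 3 had 32.9 CPM of Ier3 (37.9 to 38.2) and 258 CPM of Mapkapk2 (272 to 274).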

How the results depend on the processing

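Hspb1, Hspb3, Hspb6, Hspb7, Hspb8 and Cryab kept their direction and their side of the threshold in all 17 alternatives. Leaving out 1 library at a time gave log2 fold changes of 1.39 to 1.59 for Hspb6, 0.98 to 1.29 for Hspb7, 0.87 to 1.04 for Cryab, 0.92 to 1.10 for Hspb1, -0.48 to -0.37 for Hspb8 and 0.13 to 0.25 for Hspb3. Hspb2 no longer passed with DESeq2 (0.29), with library totals alone (0.26) or with no filter (0.28), and ranged from 0.24 to 0.34 without 1 library. Bag3 no longer passed with DESeq2 (0.25), without robust estimation (0.27), with DESeq2 size factors in edgeR (0.25), with upper quartile scaling (0.25), with no filter (0.25) or with the library number as a covariate (0.26), and ranged from 0.21 to 0.32 without 1 library. The number of called members was 5 to 7 and that of called genes 1307 to 1835. The cause of these losses was not tested.

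Without 1 library the exact permutation test of a ratio cannot go below 0.0571. The log2 differences were then 0.57 to 0.76 for Cryab to Hspb2, 0.61 to 0.73 for Bag3 to Hspb8, 1.32 to 1.505 for Hspb1 to Hspb8 and 0.44 to 0.63 for Hspb6 to Cryab. Of 57 named genes outside the set, 45 kept their call and direction in every alternative, 11 changed their call and Hspa1a reversed to -0.16 without knockout 1, with 0.55 without knockout 3 as its highest value. Myh2 passed with DESeq2, limma voom, edgeR without robust estimation and without control 2. Chrna1 no longer passed with DESeq2 or without control 2 or knockout 3, and Nrep without control 2. Hspa1a had no value under the filter of 5 CPM in 4 libraries.

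Small lists moved by single genes. Without control 2 or knockout 2, 3 or 4, 1 heat shock target was lower. Without control 3 or knockout 3, 2 genes of the kinase list were higher. Other small heat shock and BAG genes called higher numbered 0 without control 4 or knockout 4 and 2 without knockout 1 or with no filter. Lower fibroblast markers numbered 0 to 2 and lower immediate early genes 0 to 2. With limma voom, 4 glycolytic and 5 regeneration genes were higher. No paired analysis was possible because replicates were numbered in accession order and the labels give no number shared between the genotypes.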
